A study of Mus musculus with 5 samples.

Results

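The genes described here are the cytochrome P450 enzymes of families 1 to 3 in mouse liver, together with the nuclear receptors CAR (Nr1i3) and PXR (Nr1i2) and with Por, the reductase that passes electrons to these enzymes. They were taken by name from a table of 33589 rows. All symbols of the form Cyp1, Cyp2 or Cyp3 followed by a letter and a number were included, plus the 3 named genes, where the mean over the 5 libraries was above 0. Of 62 such rows, 52 met this condition, 49 of them P450 enzymes, and 10 rows at 0 in every library were left out.

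Liver RNA of male mice was sequenced in 5 libraries, 3 of knockouts and 2 of controls. The knockouts carried floxed Heg1 (written Hegfl/fl in the labels) with Lyve1-Cre, and the controls carried the same floxed allele without Cre. Every animal was on a high-fat diet for 4 weeks, starting at 6 weeks of age, and no group on a normal diet was analysed here. Lyve1 marks lymphatic and liver sinusoidal endothelium, so the Cre acts mainly there and not in hepatocytes, the cells that make nearly all P450 of the liver. The study's own design text names hepatocytes, but the tissue in the labels is liver, and whole liver is assumed. Heg1 encodes heart of glass, a membrane protein of endothelial junctions. The labels do not say that each library came from a separate animal, so a p-value here measures how far libraries of 1 group spread, which may be technical. The unit is FPKM, in which fragment numbers are divided by transcript length and library size, and which allows levels of different genes to be compared.

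P450 enzymes are heme proteins of the endoplasmic reticulum that oxidize drugs, environmental chemicals, steroids, bile acids and fatty acids, with electrons supplied by Por and cytochrome b5. CAR and PXR form heterodimers with RXR and, when activated, raise Cyp2b and Cyp3a genes, whereas the aryl hydrocarbon receptor (AhR) raises Cyp1 genes. In the liver lobule most of these enzymes are concentrated around the central vein, where endothelial Wnt signals act, while Cyp2f2 marks the periportal side. Several mouse P450 genes are also sex-biased through the pattern of growth hormone, with Cyp2d9 high in males and Cyp2b9, Cyp2b13, Cyp2a4, Cyp3a41 and Cyp3a44 high in females.

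Most of the genes lie in tandem clusters, placed here by the GENCODE annotation of GRCm38, the build called mm10. The Cyp2a, Cyp2b, Cyp2f, Cyp2g, Cyp2s and Cyp2t genes span 25802475 to 27158668 on chromosome 7, where 10 of 13 rows met the rule. The main Cyp2c cluster spans 39007019 to 40187333 on chromosome 19 with 14 members, and Cyp2c23 stands apart from it at 44005022 to 44029208. Cyp2d genes span 82370527 to 82794294 on chromosome 15, Cyp3a genes other than Cyp3a13 145345279 to 146113287 on chromosome 5, and Cyp2j genes 96027534 to 96664154 on chromosome 4. Nr1i3 lies on chromosome 1 at 171213970 to 171220701, Nr1i2 on chromosome 16 at 38248323 to 38294824, and Por on chromosome 5 at 135670033 to 135735326. Cyp2d13 was not found in the annotation.

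Neighbouring paralogs are alike in sequence, which bears on how far their reads can be told apart. Among words of 50 bases in the longest coding transcript, 72.1% of those of Cyp2c40 occurred in another member, 52.8% for Cyp2c67 and 43.3% for Cyp2c68. For Cyp2a5, 31.0% of the words were shared with Cyp2a4, and for Cyp2c50 30.7% and Cyp2c37 30.1% were shared, in part between these 2 genes. The share was 36.1% for Cyp2d10 and 26.9% for Cyp2d9. No word of Cyp2e1, Cyp2f2, Cyp2c70, Cyp2u1, Cyp3a11, Nr1i3, Nr1i2 or Por was shared, and 10.8% were for Cyp2b9. The values of the Cyp2a, Cyp2b, Cyp2d, Cyp3a25 and Cyp3a59 genes and of most of the Cyp2c genes are uncertain member by member to that extent.

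Promoter windows from RefSeq (GRCm38.p6), from 250 bases before to 50 bases after the start of transcription, were available for 45 of the 52 members. The windows shown are those of the 3 Cyp2b genes, of Nr1i3, which encodes CAR, and of Cyp3a11 and Cyp2c70, which hold both motifs marked. Of the Cyp2b genes, Cyp2b10 is a classical target of CAR. The windows are each printed 5′ to 3′ on the strand of the gene. They lie at chr7:26173159-26173458 (plus strand) for Cyp2b9, chr7:26061245-26061544 (plus strand) for Cyp2b13, chr7:25897408-25897707 (plus strand) for Cyp2b10, chr5:145879805-145880104 (minus strand) for Cyp3a11, chr19:40187237-40187536 (minus strand) for Cyp2c70 and chr1:171213720-171214019 (plus strand) for Nr1i3. Capitals mark the nuclear receptor half-site AGGTCA and the HNF4 core CAAAGTCCA, searched on both strands; the windows of Cyp2b10 and Nr1i3 hold neither.
Cyp2b9: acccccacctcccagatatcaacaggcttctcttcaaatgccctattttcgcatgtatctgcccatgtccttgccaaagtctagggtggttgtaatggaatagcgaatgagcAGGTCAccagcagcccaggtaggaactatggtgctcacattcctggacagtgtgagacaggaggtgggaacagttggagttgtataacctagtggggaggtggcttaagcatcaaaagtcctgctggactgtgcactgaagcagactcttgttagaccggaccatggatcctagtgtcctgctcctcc
Cyp2b13: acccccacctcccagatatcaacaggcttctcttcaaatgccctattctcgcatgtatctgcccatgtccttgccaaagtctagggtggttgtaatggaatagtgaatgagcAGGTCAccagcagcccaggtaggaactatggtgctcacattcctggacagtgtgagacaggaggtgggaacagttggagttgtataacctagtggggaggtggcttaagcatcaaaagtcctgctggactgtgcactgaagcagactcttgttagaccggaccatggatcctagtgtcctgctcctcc
Cyp2b10: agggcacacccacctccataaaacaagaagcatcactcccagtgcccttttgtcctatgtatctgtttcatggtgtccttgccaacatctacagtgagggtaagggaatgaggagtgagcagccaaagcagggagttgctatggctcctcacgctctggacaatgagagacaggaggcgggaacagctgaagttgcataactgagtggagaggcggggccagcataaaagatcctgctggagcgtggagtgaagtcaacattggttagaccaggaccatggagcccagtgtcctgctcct
Cyp3a11: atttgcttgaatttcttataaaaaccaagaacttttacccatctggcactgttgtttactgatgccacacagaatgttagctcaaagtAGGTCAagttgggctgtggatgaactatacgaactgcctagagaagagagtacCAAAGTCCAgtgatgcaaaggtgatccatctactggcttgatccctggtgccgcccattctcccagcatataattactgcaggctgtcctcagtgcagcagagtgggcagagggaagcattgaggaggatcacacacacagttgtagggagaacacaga
Cyp2c70: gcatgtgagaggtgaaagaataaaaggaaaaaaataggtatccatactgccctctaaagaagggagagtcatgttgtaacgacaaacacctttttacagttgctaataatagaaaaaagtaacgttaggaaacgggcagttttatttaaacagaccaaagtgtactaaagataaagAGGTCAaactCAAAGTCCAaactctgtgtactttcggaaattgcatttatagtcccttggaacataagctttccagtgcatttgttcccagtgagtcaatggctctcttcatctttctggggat
Nr1i3: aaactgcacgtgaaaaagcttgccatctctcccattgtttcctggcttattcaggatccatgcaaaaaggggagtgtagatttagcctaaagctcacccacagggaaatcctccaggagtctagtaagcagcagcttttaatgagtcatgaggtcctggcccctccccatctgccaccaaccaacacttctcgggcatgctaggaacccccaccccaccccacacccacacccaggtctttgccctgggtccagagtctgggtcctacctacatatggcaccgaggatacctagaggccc

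The windows of Cyp2b9 and Cyp2b13 were identical at 298 of 300 bases, and each was 71.7% identical to that of Cyp2b10 in a global alignment. Both hold 1 half-site at the same place, which the Cyp2b10 window does not. Over the 48 windows of members, 29.2% held AGGTCA, against 16.3% of all 32851 windows. The windows with AGGTCA include those of Cyp2b9 and Cyp2b13 and overlapping windows of Cyp3a25, so they are not independent. CAAAGTCCA was found in 7 of the 48 windows, or 14.6%, against 0.475% of all windows. These 7 belong to Cyp2c40, Cyp2c65, Cyp2c67, Cyp2c68, Cyp2c69, Cyp2c70 and Cyp3a11, so 6 of them come from a single cluster of duplicated genes and are not independent. In Cyp2c70 the half-site begins at position -74 and the HNF4 core at -64, counted from the start of transcription, and in Cyp3a11 they begin at -162 and -109. The AhR core GCGTG was found in 18.8% of the member windows, against 32.4% of all, and TATAAA on either strand in 50% against 13.6%. The STAT letters TTCNNNGAA occurred in 1 member window, that of Cyp2j11, or 2.08% against 8.3%. A match here is a string of letters in the window, not a site shown to be bound.

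Beyond the genes described here, the libraries had sums between 797692 and 820498 FPKM, with 10614 to 10945 genes at or above 1 FPKM, and their depth is unknown. Heg1 had 0.45, 0.43 and 0.50 FPKM in the knockout livers, against 0.48 and 0.35 FPKM in the control livers, so the targeted gene does not check the genotype labels in whole liver. Hepatocyte markers, 4 of 10 of which were higher in knockouts, summed to 67976, 66470 and 81608 FPKM in the knockout livers, against 82744 and 78677 FPKM in the control livers. Of the markers of other sources, the adipocyte genes Adipoq, Plin1 and Lep were at 0 in all 5 libraries. So were the pancreas genes Prss2, Cpa1, Pnlip and Amy2a5. The other listed pancreas gene, Cela1, had 65.0, 62.8 and 43.1 FPKM in the knockout livers, against 53.4 and 42.7 FPKM in the control livers. The mesothelial genes Msln and Upk3b reached at most 1.48 and 0.84 FPKM. Erythrocyte markers, all 5 tested of which were higher in knockouts, summed to 1329, 244 and 141 FPKM in the knockout livers, against 136 and 146 FPKM in the control livers, so knockout 1 stands apart. Kupffer cell markers, with 7 of 7 higher in knockouts, summed to 198, 263 and 266 FPKM in the knockout livers, against 152 and 261 FPKM in the control livers. Cholangiocyte markers, with 4 of 4 tested higher in knockouts, summed to 80.6, 56.5 and 62.0 FPKM in the knockout livers, against 35.5 and 45.8 FPKM in the control livers. Of the 4, Epcam averages at least 1 FPKM only through the knockouts, the group in which it is high. Sinusoidal endothelial markers summed to 132 to 181 FPKM in the knockout livers and to 164 and 141 FPKM in the control livers, with 4 of 8 higher. Of 6 pan-endothelial markers 4 were higher, and of 8 stellate cell markers 2. These counts stand beside 64.2% higher in knockouts over all genes with a mean of at least 1 FPKM. Markers of neutrophils and of T, B and NK cells were scarce, at no more than 8.51 FPKM summed. The part of these cells in the P450 values was not tested, and in whole liver fewer cells of a type and less RNA per cell cannot be told apart.

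P450 transcripts made up a similar share of the transcriptome in all livers. Summed over the 49 enzymes they reached 11005, 10040 and 10406 FPKM in the knockout livers, against 11828 and 10621 FPKM in the control livers. This was 1.34%, 1.26% and 1.29% of all FPKM in the knockout livers and 1.45% and 1.3% in the control livers, and the groups overlap because knockout 1 exceeds control 2. Of the 49 enzymes, 19 averaged at least 100 FPKM, 5 between 10 and 100, 6 between 1 and 10, and 19 less than 1. The 5 most abundant enzymes, Cyp2e1, Cyp2d9, Cyp2f2, Cyp2d10 and Cyp2d26, held between 61.9% and 68.3% of the sum.

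**Figure D1:**
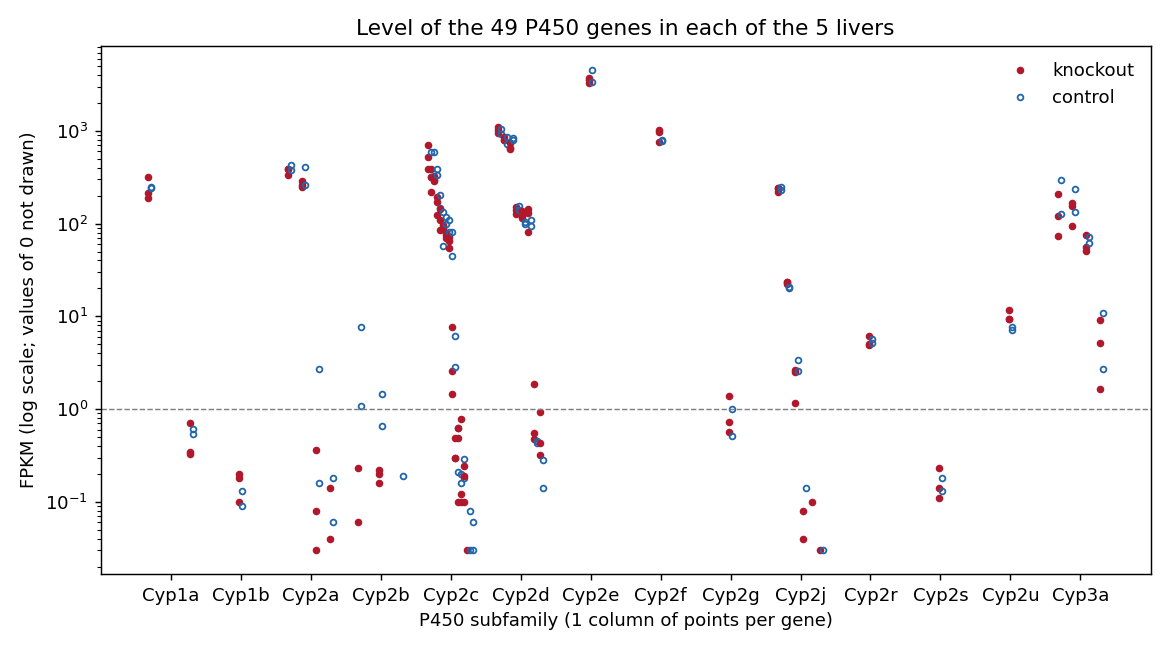
Level of each of the 49 P450 genes in the 3 knockout livers (filled red) and 2 control livers (open blue), in FPKM on a log axis, with genes grouped by subfamily and ordered by mean within it. Cyp2e1 stands highest at 3309 to 4541 FPKM, and the dashed line at 1 FPKM divides the 30 tested enzymes from the 19 with a lower mean.

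Cyp2e1, which oxidizes ethanol, acetaminophen and fatty acids, had 3727, 3523 and 3309 FPKM in the knockout livers, against 4541 and 3349.9 FPKM in the control livers. Control 1 was the highest and control 2 lay among the knockouts, so the groups overlap, and the log2 fold change was -0.15 (SE 0.15, 95% confidence interval -0.50 to 0.20). The enzyme alone accounted for 33.9%, 35.1% and 31.8% of P450 FPKM in the knockout livers and for 38.4% and 31.5% in the control livers. Without control 1 its log2 fold change was 0.070.

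The genotypes were compared for the 33 members with a mean of at least 1 FPKM, using limma on log2(FPKM + 1) of 10820 genes. A log2 fold change is the mean of log2(FPKM + 1) in knockouts less that in controls, and p-values were adjusted over all 10820 genes. No member passed at 0.05, nor did any gene (0% of 10820), and the adjusted p of members lay between 0.700 and 0.978. Without adjustment, 2 members were higher and 4 lower at p under 0.05, where 5.29% and 1.71% of all genes were. With 2 controls and 3 knockouts an exact permutation test cannot give a two-sided p below 0.1.

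Of the 33 members, 22 had lower and 11 higher means in knockouts, which is 33.3% higher, while 64.2% of all genes had higher means. Their median log2 fold change was -0.12, against 0.061 over all genes. Knockouts lay all below both controls for 7 members, which is 21.2% against 6.38% of all genes, and all above for 3, which is 9.09% against 18.9%. The split of all genes moved with scaling, to 11.9% above and 12.1% below with median-of-ratios scaling and to 10.9% and 11.5% with quantile normalization. Under these scalings the members stood at 3 above and 9 below, and at 3 above and 7 below. Lower means were found for 20 members without control 1 and for 23 without control 2. The 7 were Nr1i3, Nr1i2, Cyp2b9, Cyp2c37, Cyp2c50, Cyp2c54 and Cyp2d26, and the 3 were Cyp2u1, Cyp2d13 and Cyp2j6. Cyp2b9 averages above 1 FPKM only through the controls, so that its place among the tested members rests on the group in which it is high.

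**Figure D2:**
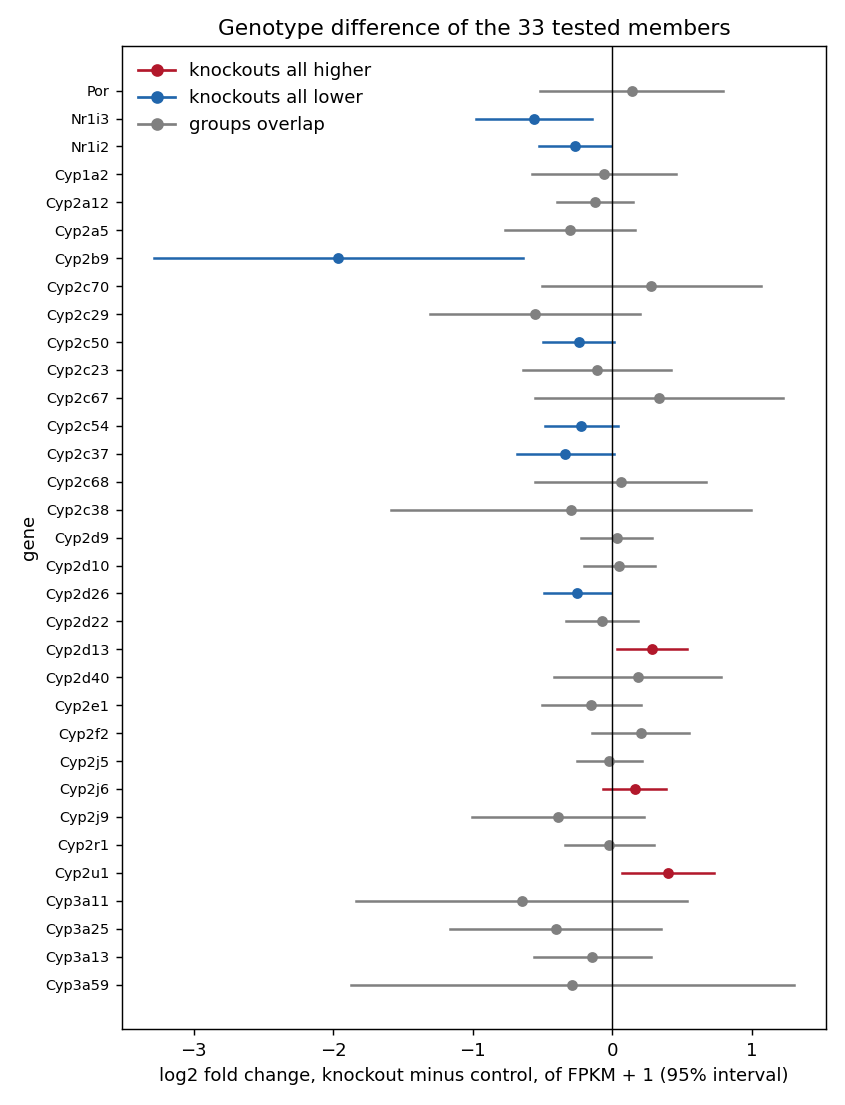
Log2 fold change of FPKM + 1, knockout minus control, for the 33 tested members, with 95% intervals from limma (3 knockout and 2 control livers). Red marks genes whose knockouts all lie above both controls, blue those whose knockouts all lie below, and grey those whose groups overlap. Cyp2b9 lies farthest from 0 at -1.96.

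Both xenobiotic receptors were lower in all 3 knockouts. Nr1i3, which encodes CAR, had 113, 119.5 and 81.2 FPKM in the knockout livers, against 152 and 154 FPKM in the control livers. The knockouts lay below the closely matched controls, with knockout 3 the lowest, and the log2 fold change was -0.56 (SE 0.17, 95% confidence interval -0.98 to -0.15), limma adjusted p = 0.700. Nr1i2, which encodes PXR, had 20.5, 22.9 and 24.1 FPKM in the knockout livers, against 27.1 and 27.4 FPKM in the control livers. Here too the controls differed little and knockout 1 was the lowest, with a log2 fold change of -0.27 (SE 0.11, 95% confidence interval -0.53 to -0.01) and limma adjusted p = 0.700. Nr1i3 stood between -0.67 and -0.39 and Nr1i2 between -0.32 and -0.20 when single livers were left out.

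Por, the electron donor of all microsomal P450 enzymes, had 191, 308 and 208 FPKM in the knockout livers, against 269 and 163 FPKM in the control livers. The groups overlap widely, with knockout 2 the highest and control 2 the lowest, and the log2 fold change was 0.14 (SE 0.27, 95% confidence interval -0.52 to 0.80). Among 6 further genes of electron transfer and membrane partners of P450, 3 were higher and 3 lower, with a median of 0.0024. Over all genes 64.2% were higher, with a median of 0.061. By limma 0 passed, with 1 under 0.05 before adjustment, where 5.29% of all genes were higher and 1.71% lower. Cyb5r3, the reductase of cytochrome b5, had 286, 280.0 and 308 FPKM in the knockout livers, against 242 and 223 FPKM in the control livers, and all 3 knockouts were above the controls (log2 fold change 0.32, SE 0.095). Cyb5a, cytochrome b5 itself, had 1201, 1042 and 1035 FPKM in the knockout livers, against 1273 and 1296 FPKM in the control livers, with all 3 knockouts below (log2 fold change -0.24, SE 0.10).

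The Cyp2b genes were low in all of these male livers, and Cyp2b9 and Cyp2b10 were lower in every knockout than in either control. Cyp2b9, a female-predominant steroid hydroxylase, had 0, 0.23 and 0.06 FPKM in the knockout livers, against 1.08 and 7.73 FPKM in the control livers. All knockouts lay below both controls, but the controls themselves were far apart, with control 2 far above control 1. Its log2 fold change was -1.96 (SE 0.55, 95% confidence interval -3.28 to -0.64), limma adjusted p = 0.700, with -2.998 without control 1 (limma adjusted p = 0.0575) and -0.93 without control 2. Because the values are small, the estimate depends on the pseudocount, being -4.13 with 0.1 in place of 1. Cyp2b10, which phenobarbital induces through CAR, averaged less than 1 FPKM and had 0.16, 0.22 and 0.20 FPKM in the knockout livers, against 0.66 and 1.46 FPKM in the control livers. Its groups did not overlap either, and when genes down to 0.1 FPKM were fitted its log2 fold change was -0.76, with a limma adjusted p of 0.750. Cyp2b13, whose promoter window nearly matches that of Cyp2b9, was listed at 0 in every library except control 2, at 0.19 FPKM.

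**Figure D3:**
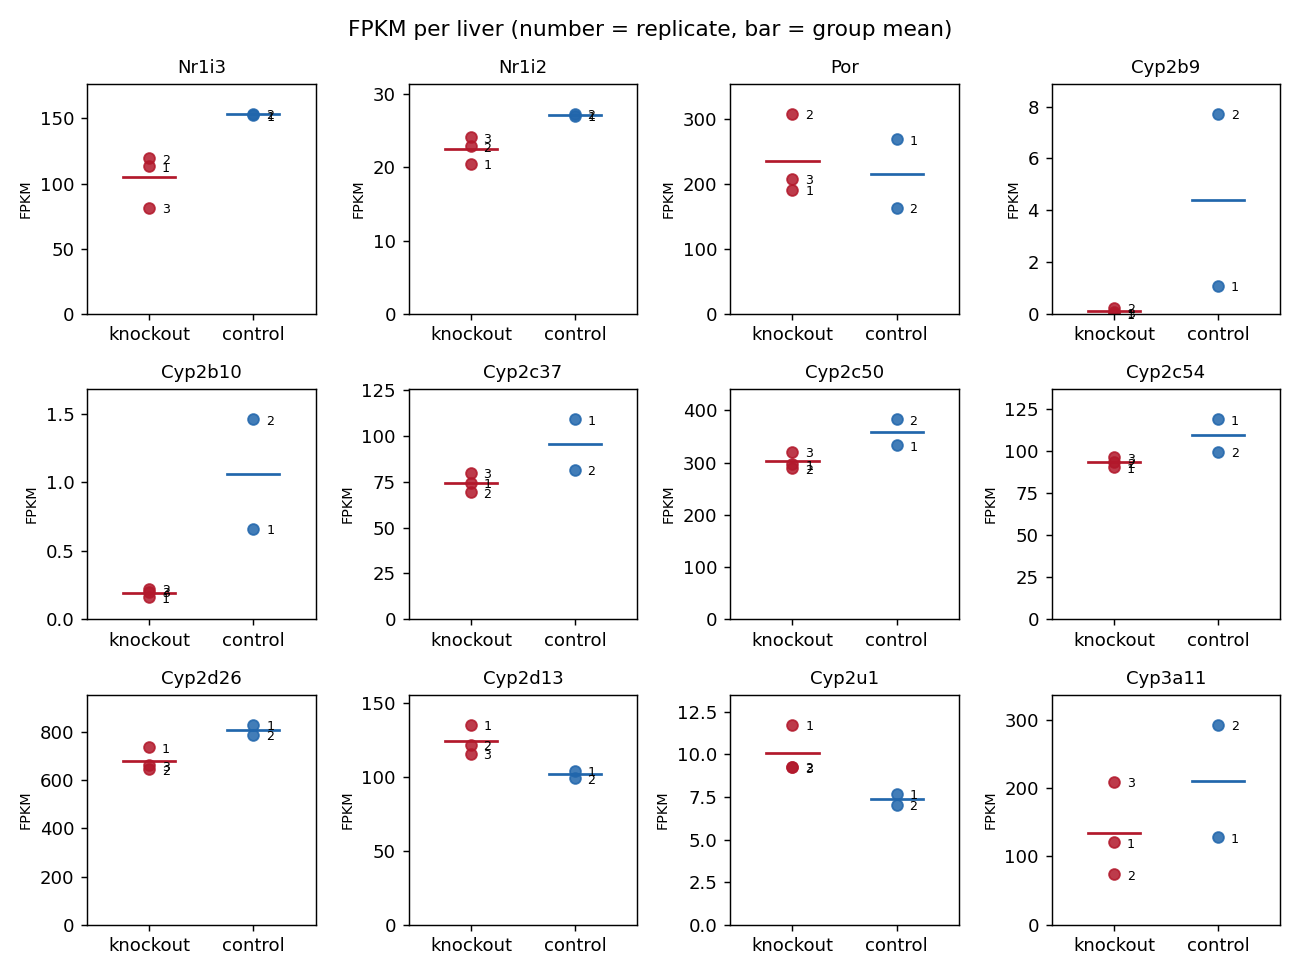
FPKM of 12 members in each liver (points, labelled with the replicate number), with knockouts left and controls right and a bar at each group mean. The vertical axes start at 0. Nr1i3 and Nr1i2 show close control values above all knockouts, while Cyp2b9, Cyp2b10 and Cyp3a11 show control 2 far above control 1.

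The Cyp3a genes are the main targets of PXR and relatives of human CYP3A4. All 4 members had lower means in knockouts, as did 35.8% of all genes. Their median log2 fold change was -0.35, against 0.061 over all genes, and control 2 was the highest library for 3 of the 4. Cyp3a11, the principal hepatic member, had 121, 73.6 and 209 FPKM in the knockout livers, against 128 and 293 FPKM in the control livers. Knockout 3 exceeded control 1, and the log2 fold change was -0.65 (SE 0.49, 95% confidence interval -1.83 to 0.53), and it was -0.055 without control 2. Cyp3a25 had 93.7, 154 and 166 FPKM in the knockout livers, against 134 and 235 FPKM in the control livers. Cyp3a59, which shares 24.7% of its 50-base words with other members, had 1.66, 5.15 and 9.02 FPKM in the knockout livers, against 2.73 and 10.9 FPKM in the control livers. Control 1 lay among the knockouts in each of these genes. Cyp3a13 varied less, at 51.2, 75.0 and 56.1 FPKM in the knockout livers, against 61.8 and 71.2 FPKM in the control livers. The Cyp3a genes that are female-biased in the mouse, Cyp3a16, Cyp3a41a, Cyp3a41b and Cyp3a44, were listed at 0 in all 5 libraries.

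The Cyp2c genes, mostly epoxygenases and hydroxylases of arachidonic acid, did not move as a block. Cyp2c37, Cyp2c54 and Cyp2c50 are neighbours between 39992424 and 40113950, and in each all 3 knockouts lay below both controls. Cyp2c37 had 74.6, 69.4 and 80.0 FPKM in the knockout livers, against 109 and 81.7 FPKM in the control livers. Cyp2c54 had 90.2, 93.0 and 96.0 FPKM in the knockout livers, against 118.7 and 99.4 FPKM in the control livers. Cyp2c50 had 297, 289 and 321 FPKM in the knockout livers, against 333 and 383 FPKM in the control livers. In the first 2 of these control 1 was the highest, and in Cyp2c50 control 2 was. Their log2 fold changes were -0.34 (SE 0.14), -0.22 (SE 0.11) and -0.24 (SE 0.10), with limma adjusted p of 0.708, 0.718 and 0.708. Since the 3 transcripts share between 25.7% and 30.7% of their 50-base words with other members, they are not wholly separate measurements. Without control 1 the first 2 stood at -0.13 and -0.094.

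Cyp2c29, an epoxygenase that CAR activators induce, had 217, 388 and 319.6 FPKM in the knockout livers, against 329 and 589 FPKM in the control livers. Control 2 was the highest and knockout 1 the lowest, while control 1 lay within the range of the knockouts. The log2 fold change was -0.55 (SE 0.31, 95% confidence interval -1.31 to 0.20), and -0.14 without control 2. Cyp2c70, which makes the muricholic acids typical of mouse bile, varied the other way between the controls, with 703, 386 and 524 FPKM in the knockout livers, against 588 and 314 FPKM in the control livers. Cyp2c67 and Cyp2c68 were also lowest in control 2, at 56.9 and 45.0 FPKM, and highest or next to highest in control 1, at 134 and 82.1 FPKM. The log2 means of Cyp2c70, Cyp2c67 and Cyp2c68 were higher in knockouts by 0.28 (SE 0.33), 0.34 (SE 0.37) and 0.059 (SE 0.25), with overlapping groups. Of the remaining tested members, Cyp2c23, an epoxygenase, lay between 124 and 203 FPKM, and Cyp2c38 between 1.46 and 7.66 FPKM, both with overlapping groups. Cyp2c39, Cyp2c40, Cyp2c55, Cyp2c65, Cyp2c66 and Cyp2c69 averaged less than 1 FPKM.

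**Figure D4:**
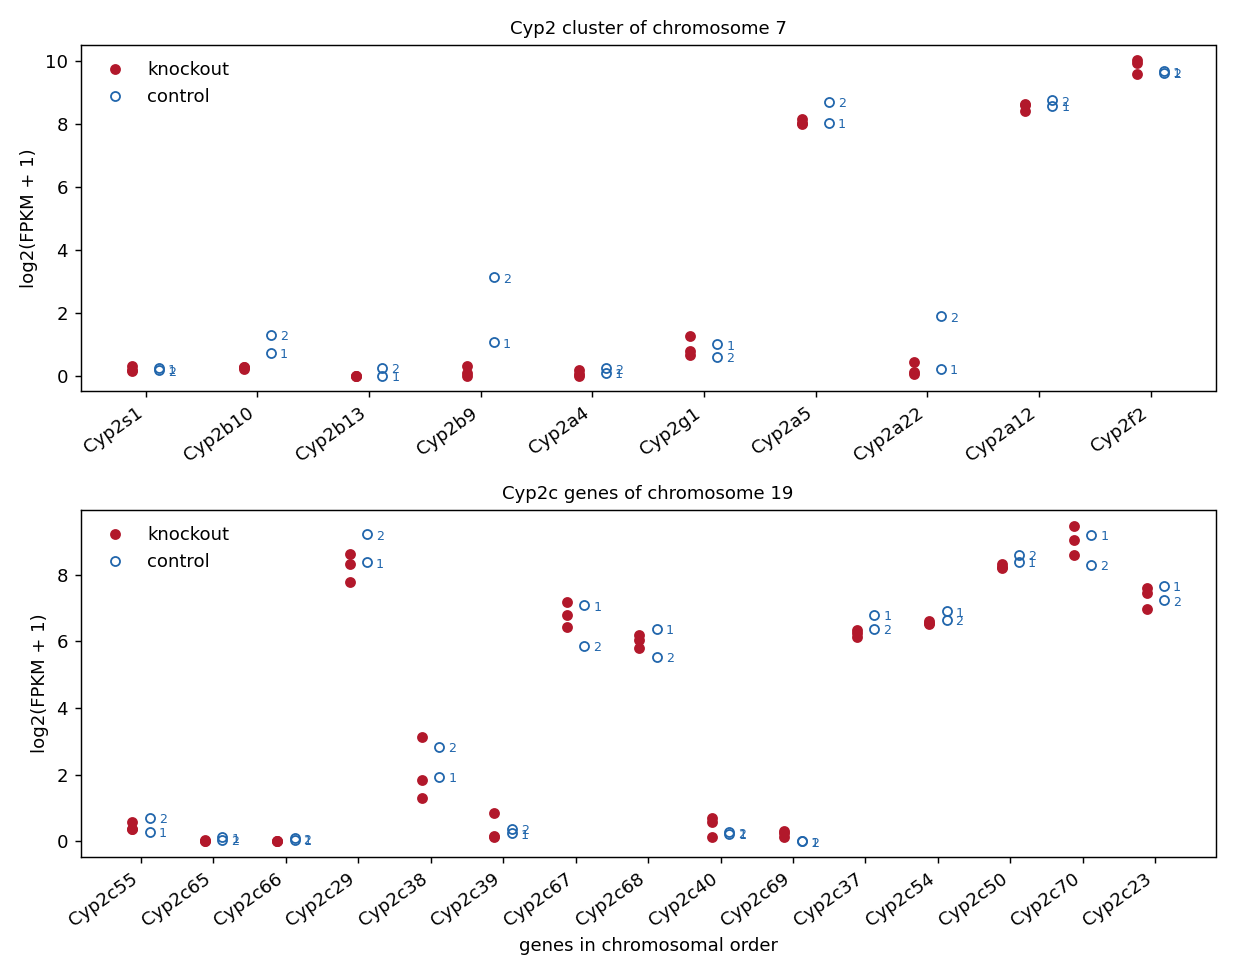
Log2(FPKM + 1) of members in chromosomal order, for the Cyp2 cluster of chromosome 7 (top) and the Cyp2c genes of chromosome 19 (bottom), in 3 knockout (filled red) and 2 control livers (open blue, labelled with the replicate number). Control 2 is above control 1 in Cyp2b9, Cyp2a5, Cyp2a22 and Cyp2c29 and below it in Cyp2c67, Cyp2c68 and Cyp2c70.

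Of the Cyp2a genes on chromosome 7, Cyp2a5, the coumarin hydroxylase, had 250.1, 285 and 259 FPKM in the knockout livers, against 259 and 411 FPKM in the control livers. Control 2 was well above the other 4 livers, control 1 lay within the knockouts, and the log2 fold change was -0.30 (SE 0.19, 95% confidence interval -0.77 to 0.16), or 0.026 without control 2. Cyp2a12, a bile acid hydroxylase, had 392, 334 and 384 FPKM in the knockout livers, against 379 and 427 FPKM in the control livers, with a log2 fold change of -0.12 (SE 0.11). Cyp2a22 reached 2.68 FPKM in control 2 and at most 0.36 FPKM in the other 4 livers. Cyp2a4, the female-biased testosterone hydroxylase, stood at 0.14, 0.04 and 0 FPKM in the knockout livers, against 0.06 and 0.18 FPKM in the control livers. Cyp2f2, the periportal enzyme that activates naphthalene, had 975, 758 and 1026 FPKM in the knockout livers, against 806 and 779 FPKM in the control livers. Knockouts 1 and 3 were above both controls and knockout 2 below them, for a log2 fold change of 0.20 (SE 0.15, 95% confidence interval -0.15 to 0.55).

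The Cyp2d genes are relatives of human CYP2D6. Cyp2d9, the male-specific testosterone hydroxylase, had 1089.5, 1012 and 945 FPKM in the knockout livers, against 1050.0 and 937 FPKM in the control livers. The groups overlap and the interval of the log2 fold change, -0.22 to 0.29, holds an estimate of 0.032. Cyp2d10 had 850.3, 789 and 799.7 FPKM in the knockout livers, against 853 and 722 FPKM in the control livers, and here the controls enclosed all 3 knockouts, as they did for 1 other member, Cyp2c68 (2 of 33 or 6.06%, against 7.85% of all genes). Cyp2d26 had 737, 645 and 661 FPKM in the knockout livers, against 831 and 788 FPKM in the control livers, with all 3 knockouts below both controls and a log2 fold change of -0.25 (SE 0.10, 95% confidence interval -0.49 to -0.01), limma adjusted p = 0.700. Cyp2d13 went the other way, with 136, 122 and 115.95 FPKM in the knockout livers, against 104 and 99.2 FPKM in the control livers, and all 3 knockouts above both controls. Its log2 fold change was 0.28 (SE 0.10, 95% confidence interval 0.04 to 0.53), limma adjusted p = 0.700. Cyp2d22, at 127.5 to 153 FPKM, and Cyp2d40, at 80.4 to 145 FPKM, had overlapping groups, and Cyp2d11 and Cyp2d12 averaged less than 1 FPKM.

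Among the remaining enzymes, Cyp2u1, a fatty acid hydroxylase whose transcript is male-biased in mouse liver, had 11.8, 9.27 and 9.25 FPKM in the knockout livers, against 7.69 and 7.05 FPKM in the control livers. All knockouts were above both controls, knockout 1 the highest, and the log2 fold change was 0.40 (SE 0.14, 95% confidence interval 0.07 to 0.73), limma adjusted p = 0.700. Without knockout 1, the liver with the high hemoglobin values, it was 0.29. Cyp2j6 lay between 22.5 and 23.7 FPKM in the knockout livers, against 20.3 and 20.95 FPKM in the control livers. Its neighbour Cyp2j5, an epoxygenase, had 218, 245 and 242 FPKM in the knockout livers, against 230.3 and 246 FPKM in the control livers, and Cyp2j9 lay between 1.16 and 3.41 FPKM, both with overlapping groups. Cyp2r1, which hydroxylates vitamin D, lay between 4.9 and 6.11 FPKM with a log2 fold change of -0.02 (SE 0.13). Cyp1a2, which metabolizes caffeine and arylamines, had 315, 187 and 213 FPKM in the knockout livers, against 245 and 240.3 FPKM in the control livers. Knockout 1 was the highest and knockout 2 the lowest of the 5, and the log2 fold change was -0.06 (SE 0.21, 95% confidence interval -0.58 to 0.45). The AhR-inducible Cyp1a1 and Cyp1b1 were at or below 0.7 FPKM in every liver.

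The 19 enzymes with a mean under 1 FPKM were not tested, and none of them exceeded 2.68 FPKM in any liver. Cyp2b10 and Cyp2c66 were lower, and Cyp2c69, Cyp2d11 and Cyp2d12 higher, in all 3 knockouts than in either control. The 2 lower are 10.5%, against 5% of the 7213 genes with a mean above 0 and under 1 FPKM, and the 3 higher are 15.8%, against 9.57%. Of these, Cyp2d12 reached 1.84 FPKM in knockout 1, and Cyp2c69 was listed at 0 in both controls and at 0.10 to 0.24 FPKM in the knockouts. Cyp2g1 had 0.73, 1.38 and 0.56 FPKM in the knockout livers, against 0.99 and 0.51 FPKM in the control livers. Cyp2s1 lay between 0.11 and 0.23 FPKM, and Cyp2j8, Cyp2j11 and Cyp2j13 reached at most 0.14 FPKM.

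**Figure D5:**
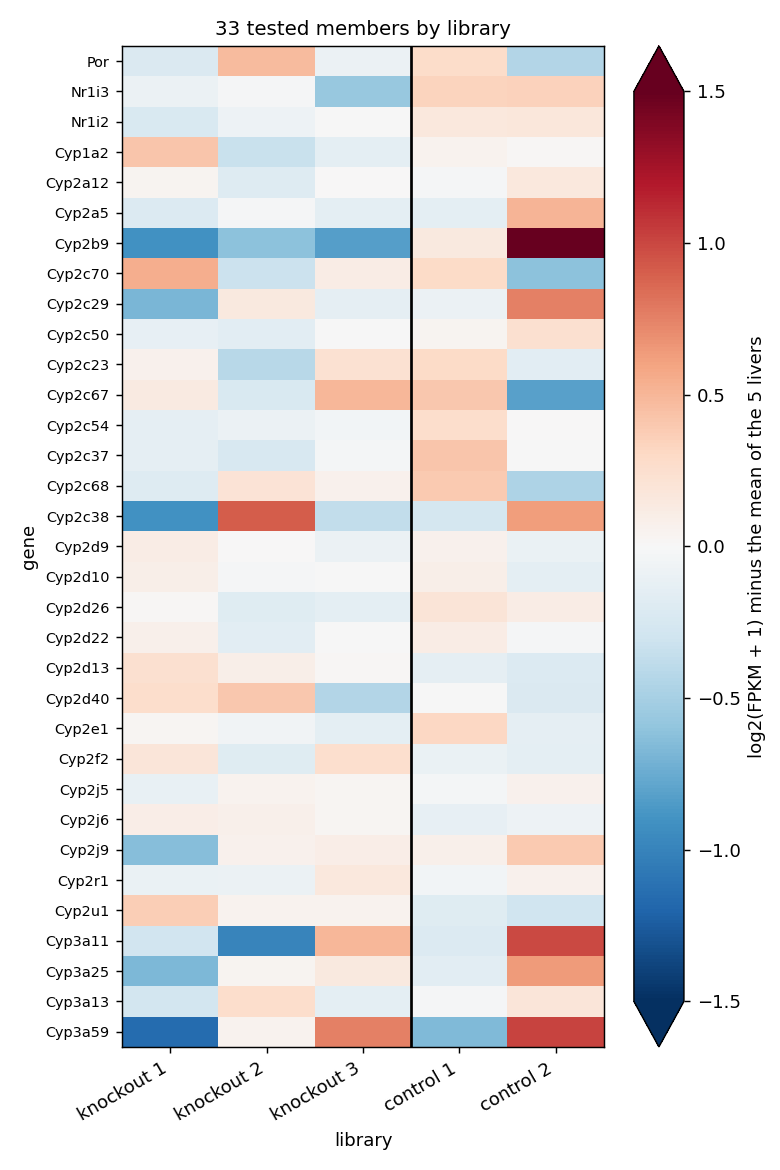
Log2(FPKM + 1) of the 33 tested members minus each gene's mean over the 5 livers (columns, knockouts left of the line), with red above and blue below that mean and colours ending at 1.5 either way. Control 2 holds the highest value in 12 of the 33 genes and the lowest in 8.

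The 2 control livers differed from each other in these genes more than in the transcriptome at large. The median absolute difference between control 2 and control 1 was 0.24 on the log2(FPKM + 1) scale over the 33 members, against 0.16 over all genes tested. A difference above 0.5 was found in 11 of 33 members and in 8.95% of all genes. Control 2 was the highest of the 5 libraries for 12 members (36.4%, against 16.7% of all genes) and the lowest for 8 (24.2%, against 23% of all genes). The 12 include both tested Cyp2a genes, Cyp2b9, Cyp2c29, Cyp2c50, Cyp3a11, Cyp3a25, Cyp3a59 and both receptors. The 8 include Cyp2c67, Cyp2c68, Cyp2c70, Cyp2d9, Cyp2d10, Cyp2d13, Cyp2u1 and Por. Control 1 was the highest for 8 (24.2%, against 11.8% of all genes) and the lowest for 1 (3.03%, against 27.9%). Knockout 1 was the lowest library for 12 members, or 36.4%, against 14.7% of all genes. For 23 of the 33 members, the gap between the controls was larger than the difference between the genotype means, as it was for 58.1% of all genes.

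Grouped by place in the lobule, 8 enzymes were listed as pericentral, namely Cyp1a2, Cyp2a5, Cyp2c29, Cyp2c37, Cyp2c50, Cyp2c54, Cyp2e1 and Cyp3a11. The list was chosen with earlier results of these data known, so the shares below describe it and are not a test. Other enzymes except Cyp2f2 were not placed. Among those, some had higher means in knockouts, such as Cyp2c70 and Cyp2d13, and others lower, such as Cyp2d26 and Cyp2a12. All 8 had lower means in knockouts, against 35.8% of all genes, 49.3% with median-of-ratios scaling and 50.6% with quantile normalization. Under both scalings all 8 were lower too. Their median log2 fold change was -0.27, against 0.061 over all genes. In 3 of them, the neighbouring Cyp2c genes named above, all knockouts lay below the controls, which is 37.5% against 6.38% of all genes, or 37.5% against 12.1% with median-of-ratios scaling and 25% (2 of 8) against 11.5% with quantile normalization. By limma 0 passed, nor was any under 0.05 before adjustment. Summed, the 8 reached 5091, 4908 and 4808 FPKM in the knockout livers, against 6064 and 5447 FPKM in the control livers, and Cyp2e1 makes up most of each sum. The count of lower means was 7 or 8 of 8 whichever liver was left out, with a median of -0.14 without control 2. The single periportal enzyme, Cyp2f2, had a log2 fold change of 0.20.

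By sex bias, both male-biased enzymes, Cyp2d9 and Cyp2u1, had higher means in knockouts, Cyp2d9 only slightly and with the sign turned under median-of-ratios scaling (-0.036) and quantile normalization (-0.0044). Of the 10 female-biased enzymes, 4 were at 0 in every liver and Cyp2b9 was the only one tested. When genes down to 0.1 FPKM were fitted, 4 of the list were compared and did not share a direction. Cyp2b9 and Cyp2b10 were lower, while Cyp2c40 and Cyp2c69 were higher in knockouts. Cyp2c40 and Cyp2c69 stayed at or below 0.63 FPKM in every liver. Summed, the 10 had 0.98, 1.36 and 0.46 FPKM in the knockout livers, against 1.96 and 9.76 FPKM in the control livers, most of it Cyp2b9 in control 2. Of 11 tested regulators of sex-dependent growth hormone action, 9 were higher and 2 lower, with a median of 0.13. Over all genes 64.2% were higher, with a median of 0.061. By limma 0 passed, with 1 under 0.05 before adjustment, where 5.29% of all genes were higher and 1.71% lower. Foxa2, a liver transcription factor, had 14.1, 22.1 and 25.1 FPKM in the knockout livers, against 11.2 and 12.5 FPKM in the control livers, with no overlap. Onecut1, another such factor, had 7.68, 24.7 and 31.2 FPKM in the knockout livers, against 11.2 and 11.3 FPKM in the control livers. Cish, a feedback target of STAT5, had 1.58, 8.74 and 26.8 FPKM in the knockout livers, against 3.29 and 2.70 FPKM in the control livers. In both, knockouts 2 and 3 lay above the controls and knockout 1 below them. Trim24 was highest in knockout 2, at 10.2 FPKM, and between 4.2 and 5.56 FPKM in the other livers.

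Genes outside the P450 families that CAR and PXR regulate were also mostly lower. Of 27 tested targets, 19 were lower and 8 higher, with a median of -0.21, against 35.8% lower and a median of 0.061 over all genes. By limma 0 passed, with 4 under 0.05 before adjustment, where 5.29% of all genes were higher and 1.71% lower. Knockouts lay all below the controls in 5 (18.5%, against 6.38% of all genes) and all above in 1 (3.7%, against 18.9%). With median-of-ratios scaling they lay below in 7 (25.9%, against 12.1% of all genes) and above in 0 (against 11.9%). Gstm1, a glutathione transferase, had 723, 717 and 595 FPKM in the knockout livers, against 879 and 979 FPKM in the control livers (log2 fold change -0.46, SE 0.12). Abcc3, an export pump of the sinusoidal membrane, had 34.2, 26.2 and 44.4 FPKM in the knockout livers, against 52.0 and 53.2 FPKM in the control livers (log2 fold change -0.61, SE 0.21). Ugt1a1, the bilirubin glucuronosyltransferase, had 208, 202 and 228 FPKM in the knockout livers, against 258 and 257 FPKM in the control livers. Ephx1, the microsomal epoxide hydrolase, had 107, 137 and 112 FPKM in the knockout livers, against 142 and 177 FPKM in the control livers. In these 4 genes the groups did not overlap. The count turned to 12 lower and 15 higher without control 2, with a median of 0.035, so the direction of these targets depended on that liver.

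Of 14 tested partners and coregulators of CAR and PXR, 10 were higher and 4 lower, with a median of 0.037. Over all genes 64.2% were higher, with a median of 0.061. By limma 0 passed, with 1 under 0.05 before adjustment, where 5.29% of all genes were higher and 1.71% lower. Rxra, the dimer partner of both receptors, had 103, 117.5 and 91.4 FPKM in the knockout livers, against 91.7 and 90.9 FPKM in the control livers, and knockouts 1 and 2 lay above both controls. Nr0b2, the corepressor SHP, had 38.2, 36.1 and 13.8 FPKM in the knockout livers, against 63.5 and 42.8 FPKM in the control livers, all knockouts below (log2 fold change -0.93, SE 0.43). The coactivator Ncoa2 had 6.36, 7.54 and 7.31 FPKM in the knockout livers, against 5.30 and 5.74 FPKM in the control livers, all knockouts above. Hsp90ab1, a chaperone of unliganded receptors, had 408, 358 and 351 FPKM in the knockout livers, against 361 and 305 FPKM in the control livers. In the AhR pathway 3 of 7 tested genes were higher and 4 lower, with a median of -0.0091, and by limma 0 passed, nor was any under 0.05 before adjustment. Its quinone reductase Nqo1 had 1.73, 1.67 and 1.76 FPKM in the knockout livers, against 1.98 and 3.54 FPKM in the control livers, with no overlap and control 2 the highest. Ugt1a6a and Tiparp had overlapping groups.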

How the data were processed

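RNA of 5 mouse livers, 3 knockout and 2 control, was compared between genotypes. The deposited values are FPKM per gene symbol; the submitters' processing notes name HISAT2, StringTie, DESeq2 and the mm10 build, without versions or roles, and the strand setting is not given in those notes. Both deposited tables held the same 33589 rows, 220 of which repeat a symbol (0 of them members). Depth is unknown, so no counting interval is given.

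Genes with a mean of at least 1 FPKM (10820) were fitted on log2(FPKM + 1) with limma 3.58.1 in R 4.3.3, a trended prior variance and genotype as the only term, which was checked on simulated data. P-values were two-sided, Benjamini-Hochberg adjusted over all 10820 genes, with a threshold of 0.05. The log2 difference understates the change of low genes.

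The members and gene lists were chosen with earlier results of these data known. Full values are given for the receptors, Por, 12 preset enzymes, the 10 members of smallest p and the 10 of highest mean, and for up to 4 genes of each list by p, of which 1 is not reported here. Cluster positions and the 50-base words come from GENCODE M21; promoter windows come from RefSeq. Alternatives were other filters, pseudocounts, scalings, variance priors, library weights, a replicate block and leaving out each library.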

Additional observations from a re-analysis of the deposited data

How the results depend on the processing

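No member passed the limma threshold under any of the 15 alternatives. Over 20 named and tested genes, 285 of 299 fits kept the sign. This count overstates the robustness, because the other filters and the prior variance without trend cannot change a gene's log2 fold change. Cyp1a2, for example, stood at -0.062 in each of them. The replicate block also gave the same estimates as leaving out the knockout whose replicate number is not shared by a control. For Nr1i3 both were -0.39. The 14 fits that turned the sign concern 7 genes whose groups overlap, and the cause was not tested. The median log2 fold change of members, -0.12, was -0.062 with a filter of 0.1 FPKM, -0.062 with no filter, which both add near-zero genes, and -0.19 with median-of-ratios scaling; leaving out a library gave -0.13 to -0.071. The number of members whose groups do not overlap was 11 to 24 when a library was left out, and the share over all genes was larger in each of these fits too. Without control 1 it was 24, with 27.3% all higher and 45.5% all lower, against 32.7% and 19.5% of all genes. Without control 2 it was 15, with 9.09% and 36.4%, against 37.4% and 15.3% of all genes. The cause of this gap was not tested. All-gene calls were 0 to 1 over these fits, the 1 being Hamp without control 1.

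Leaving out single libraries moved Cyp1a2 between -0.28 and 0.094, Cyp2a5 between -0.64 and 0.026, Cyp2c70 between -0.17 and 0.73, Cyp2d10 between -0.070 and 0.17, Cyp2d9 between -0.050 and 0.11, Cyp2e1 between -0.37 and 0.070, and Por between -0.22 and 0.50. With median-of-ratios scaling Cyp2d10 stood at -0.017 and Cyp2d9 at -0.036, and with quantile normalization Cyp2d9 stood at -0.0044. With the replicate number as a block, Cyp1a2 stood at 0.00059 and 5 genes passed, none of them members. Same-numbered libraries deviated together from their group means, with correlations of 0.23 and 0.20 over genes. With 2 controls, the deviations of control 1 are those of control 2 with the sign turned, so these correlations are not separate. Only 2 numbers are shared and knockout 3 has no partner, so the numbers do not establish a pairing.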

Other observations

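Enzymes that work beside these P450 genes in the endoplasmic reticulum included the gene with the smallest p of all lists examined. Fmo5, a flavin monooxygenase that needs no separate reductase, had 225, 262 and 312 FPKM in the knockout livers, against 403 and 457 FPKM in the control livers. All 3 knockouts were lower, with a log2 fold change of -0.70 (SE 0.15) and a limma adjusted p of 0.675. Fmo1 had 90.0, 115.8 and 86.9 FPKM in the knockout livers, against 114 and 129 FPKM in the control livers, so that knockout 2 exceeded control 1. The far less abundant Fmo4 had 2.71, 3.47 and 3.51 FPKM in the knockout livers, against 2.22 and 2.72 FPKM in the control livers. The wider list of flavin monooxygenases, epoxide hydrolases, heme oxygenases and Alas1 had 9 tested genes. Of these 3 were higher and 6 lower, with a median of -0.088, against 64.2% higher and 0.061 over all genes. By limma 0 passed, with 2 under 0.05 before adjustment, Fmo5 and Ephx1, where 5.29% of all genes were higher and 1.71% lower. Ephx1 is also counted among the CAR and PXR targets above.

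Of 13 P450 enzymes listed from other families, 6 were higher and 7 lower, with a median of -0.025. Over all genes 64.2% were higher, with a median of 0.061. The list does not hold every such enzyme. By limma 0 passed, with 2 under 0.05 before adjustment, where 5.29% of all genes were higher and 1.71% lower. Cyp51, the lanosterol demethylase of cholesterol synthesis, had 24.1, 11.7 and 31.8 FPKM in the knockout livers, against 10.1 and 10.1 FPKM in the control livers. Cyp8b1, which sets the cholic acid share of bile acids, had 132, 188 and 81.2 FPKM in the knockout livers, against 86.5 and 53.3 FPKM in the control livers. Cyp26a1, which degrades retinoic acid, had 0.51, 0.51 and 1.58 FPKM in the knockout livers, against 1.80 and 1.70 FPKM in the control livers. The groups did not overlap for Cyp51, all higher, or for Cyp26a1, all lower, and they overlapped for Cyp8b1. Over all genes, 18.9% were all higher and 6.38% all lower. Cyp26a1 averages at least 1 FPKM only through the controls, the group in which it is high. Cyp46a1, the cholesterol hydroxylase best known from brain, had 2.27, 1.09 and 0.65 FPKM in the knockout livers, against 2.32 and 2.16 FPKM in the control livers.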
